A study of Mus musculus with 2 samples.

Results

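The ETS factors *Etv2*, *Fli1*, *Erg*, *Ets1*, *Ets2* and *Elk3*, the TAL1 complex genes *Tal1* and *Lmo2*, and the blood regulators *Spi1* and *Runx1* form the 10 genes described here, out of 21938 protein-coding genes of GENCODE M21 on the GRCm38/mm10 build. They were chosen by name as known regulators of endothelium and blood, with earlier results of these data known. Every region of open chromatin shared by both replicates was collected within 1 kb of each annotated start and in the gene body plus 50 kb on each side. *Fli1*, *Erg*, *Ets1*, *Ets2* and *Elk3* were grouped as endothelial, *Spi1* and *Runx1* as blood-restricted, and *Etv2*, *Tal1* and *Lmo2*, which serve both lineages, were kept apart. *Ets2* is expressed broadly, *Ets1* also acts in lymphocytes, and *Runx1* also acts in the endothelium from which definitive blood arises. The group names therefore describe a well known use of each gene and not its sole one. Endothelial members can act in blood as well, so the groups are not a strict split by lineage.

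The data are ATAC-seq peak lists from whole hearts of wildtype FVB mouse embryos at E11.5, at 49 to 51 somites, in 2 replicates of 2 pooled hearts each. In ATAC-seq, a transposase cuts and tags accessible DNA, so that reads pile up where nucleosomes are absent. Both replicates belong to a single group, which leaves no condition to compare and no test between samples. Values are given for both replicates in the order replicate 1, replicate 2.

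ETS proteins share a DNA-binding domain that reads a GGAA core. ETV2 acts briefly and early, when mesoderm becomes the common precursor of endothelium and blood, and FLI1, ERG and ETS1 then maintain the endothelial programme. TAL1 is a basic helix-loop-helix protein that binds E-boxes with E proteins, and the adaptor LMO2 joins it through LDB1 to GATA factors. PU.1, the product of *Spi1*, drives the myeloid and B cell lineages, and RUNX1 with its partner CBFB is required for definitive blood. In the embryonic heart, endothelial cells line the chambers as endocardium and form the first coronary vessels, while circulating blood cells fill the lumen.

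The lists held 118027 and 114783 peaks, of which 81.0% and 82.8% overlapped a peak of the other replicate, and their overlap gave 98924 shared regions. Strength is the fold enrichment in the authors' lists, the reads piled up at a peak's summit relative to a uniform genomic background, with 1 added to each. A single read changes it by 0.272 in replicate 1 and 0.251 in replicate 2, and across all shared regions the mean of both replicates had quartiles of 4.70, 6.29 and 10.52. Read totals are not known. The label of the tissue was checked with marker genes. A shared region lay at a start in 10 of 10 cardiomyocyte genes, 5 of 5 epicardial genes and 20 of 20 endothelial genes. The cardiomyocyte genes had a median of 13.02 and ranged from *Tbx5* with 5.43 and 4.78 to *Actc1* with 25.80 and 22.12. Blood genes had a start region in 12 of 19 (63.2%), close to the 67.6% of all protein-coding genes. Genes not expected in heart had one in 3 of 10, namely *Pax6* (22.00, 18.35), *Myod1* (4.89, 5.53) and *Olig2* (8.96, 8.30). *Pax6* was thus above the cardiomyocyte median, so strength at a start does not mark the tissue by itself. The blood genes with a region included the erythroid genes *Klf1* (21.73, 26.65) and *Epor* (30.15, 35.45), but also *Cebpa* (18.47, 15.34), *Gfi1* (7.06, 5.53) and *Ikzf1* (24.17, 27.40) of myeloid and lymphoid cells. Those without one were *Cd3e*, *Cd79a*, *Cebpe*, *Csf1r*, *Itgam*, *Ptprc* and *Vav1*. In whole hearts, fewer cells of a type and less open chromatin per cell cannot be told apart.

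Sequences of 8 regions show the DNA behind the comparison. They are windows of 201 bp around the midpoint of both summits, read from the plus strand of GRCm38 and written 5′ to 3′. Capitals mark words of known binding motifs found on either strand: CAGGAA of ETS factors (TTCCTG on the other strand), AGATAA and TGATAA of GATA factors (TTATCT and TTATCA), and the E-box CAGCTG, which reads alike on both. The 8-letter ETS words CCGGAAGT and CAGGAAGT, the RUNX word TGTGGTT, the core AACAGGAA shared by FOX and ETS factors, and CTG followed after 8 bases by AGATAA, an arrangement bound by TAL1 with GATA factors, were searched as well. CAGGAA lies inside CAGGAAGT and AACAGGAA. CAGGAA and TGATAA were added to the search after the sequences had been seen.

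Among the endothelial members, the region within 1 kb of the single open start of *Erg* (chr16:95585516-95585716) and the strongest region of *Ets1* away from its starts (chr9:32607280-32607480) are shown.
Erg 1.0 kb: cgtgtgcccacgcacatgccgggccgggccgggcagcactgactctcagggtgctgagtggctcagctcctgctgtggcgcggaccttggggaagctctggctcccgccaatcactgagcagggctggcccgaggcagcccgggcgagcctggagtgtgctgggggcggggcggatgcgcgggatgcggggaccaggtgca
Ets1 -88.6 kb: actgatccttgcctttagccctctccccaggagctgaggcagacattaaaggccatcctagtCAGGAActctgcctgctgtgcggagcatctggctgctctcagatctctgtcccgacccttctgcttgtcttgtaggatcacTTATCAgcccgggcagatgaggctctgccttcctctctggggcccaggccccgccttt

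For *Tal1*, the regions 8.3 kb upstream (chr4:115048263-115048463), 3.7 kb upstream (chr4:115052687-115052887) and 39.9 kb downstream (chr4:115095886-115096086) are shown, because the first holds the spaced CTG and AGATAA arrangement and the others match elements known by their distance from the gene.
Tal1 -8.3 kb: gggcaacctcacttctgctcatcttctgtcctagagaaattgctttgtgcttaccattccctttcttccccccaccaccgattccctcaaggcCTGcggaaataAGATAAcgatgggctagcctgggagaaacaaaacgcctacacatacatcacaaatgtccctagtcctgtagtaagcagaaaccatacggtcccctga
Tal1 -3.7 kb: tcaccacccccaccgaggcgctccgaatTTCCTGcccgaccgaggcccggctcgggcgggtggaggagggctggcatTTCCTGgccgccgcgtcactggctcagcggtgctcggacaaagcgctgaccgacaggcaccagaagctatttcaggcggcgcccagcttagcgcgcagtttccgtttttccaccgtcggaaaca
Tal1 39.9 kb: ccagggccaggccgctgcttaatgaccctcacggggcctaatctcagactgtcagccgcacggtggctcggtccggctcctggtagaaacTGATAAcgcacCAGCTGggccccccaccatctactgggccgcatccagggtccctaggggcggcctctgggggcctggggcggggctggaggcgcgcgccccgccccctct

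For the blood-restricted members, the proximal promoter of *Runx1* (chr16:92697334-92697534), its intronic region 24.4 kb from the distal start (chr16:92801624-92801824) and the upstream region of *Spi1* (chr2:91083028-91083228) are shown.
Runx1 128.2 kb: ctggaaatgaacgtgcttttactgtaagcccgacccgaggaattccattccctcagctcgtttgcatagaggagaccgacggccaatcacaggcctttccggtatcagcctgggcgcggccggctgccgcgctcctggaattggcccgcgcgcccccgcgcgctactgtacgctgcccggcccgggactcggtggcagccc
Runx1 24.4 kb: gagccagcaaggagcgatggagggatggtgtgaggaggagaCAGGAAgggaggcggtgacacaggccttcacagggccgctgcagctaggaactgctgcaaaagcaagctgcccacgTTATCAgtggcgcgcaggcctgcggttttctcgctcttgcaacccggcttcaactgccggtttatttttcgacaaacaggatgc
Spi1 0.7 kb: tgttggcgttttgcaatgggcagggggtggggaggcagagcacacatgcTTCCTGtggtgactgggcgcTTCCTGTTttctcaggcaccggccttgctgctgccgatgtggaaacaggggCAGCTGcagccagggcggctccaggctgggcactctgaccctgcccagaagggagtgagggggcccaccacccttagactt

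These sequences differ in the words they hold. The *Erg* window, which lies inside the gene about 1 kb from its start, and that of the *Runx1* proximal promoter held none of them. The *Tal1* window at 3.7 kb upstream held CAGGAA at positions 29 and 78, counted from 1 at the 5′ end. The *Tal1* window at 39.9 kb held TGATAA at 91 and CAGCTG at 102, which places a GATA word and an E-box next to each other. The *Spi1* window held CAGGAA at 50 and 70, the latter extended to AACAGGAA, and CAGCTG at 121. In the *Runx1* intron, CAGGAA stood at 42 and TGATAA at 118, and at *Ets1* they stood at 63 and 144. A word is a match of letters and not a measured binding site.

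All 10 genes had a shared region within 1 kb of at least 1 annotated start, beside 67.6% of all protein-coding genes. Counted by start rather than by gene, 34 of 48 starts had one, beside 58.0% of the starts of all protein-coding genes. The share of starts was 15 of 24 for the endothelial members, 13 of 13 for *Etv2*, *Tal1* and *Lmo2*, and 6 of 11 for *Spi1* and *Runx1*. Starts of one gene often lie close together and then share a region, so they are not independent. The strength at the starts spread widely inside each group, as the plot of start regions by replicate shows.

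**Figure D1:**
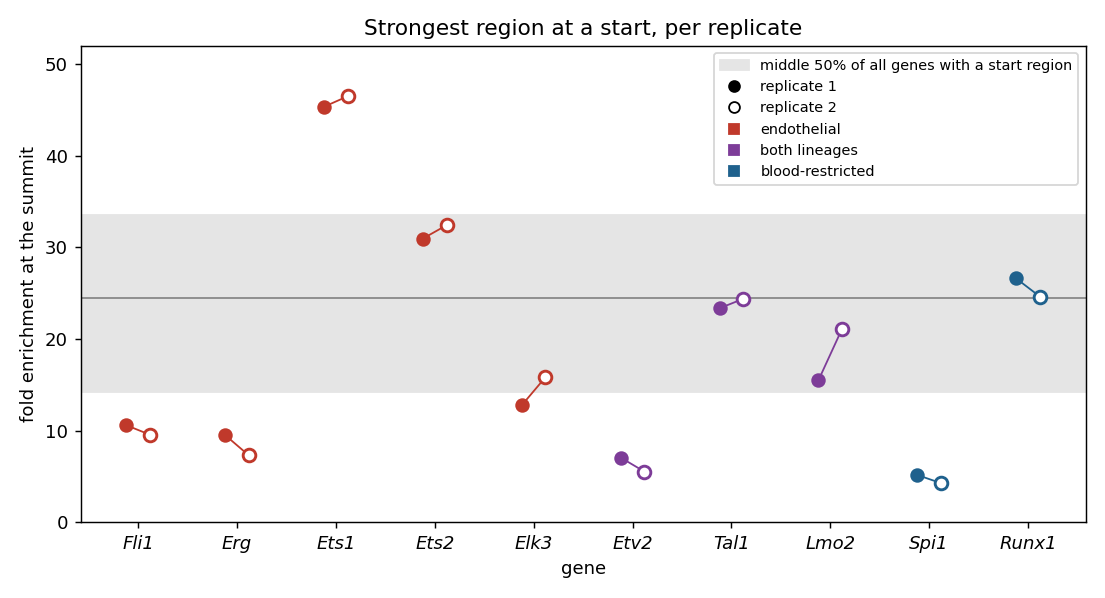
Fold enrichment (vertical axis) of the strongest shared region within 1 kb of an annotated start, for each of the 10 genes (horizontal axis), with replicate 1 filled and replicate 2 open. The grey band spans the quartiles, 14.22 to 33.52, and the line the median, 24.47, of the 14820 protein-coding genes with a start region, and *Fli1*, *Erg*, *Etv2* and *Spi1* lie below the band in both replicates.

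Among the endothelial members, *Ets1*, an ETS factor of angiogenic endothelium and lymphocytes, had the strongest start region with 45.36 and 46.51. It was above that of 95.2% of all genes with a start region. *Ets2*, a growth factor responsive relative of *Ets1*, followed with 30.97 and 32.43. Both stood apart from the other endothelial members, whose start regions were below the median of all genes. *Elk3*, a ternary complex factor that can repress transcription, had 12.77 and 15.84. *Fli1* had 10.59 and 9.55, and *Erg*, its closest relative, 9.51 and 7.29, above 16.0% and 12.2% of genes with a start region. *Fli1* and *Erg* thus had start regions below the lower quartile of all genes with one, 14.22, unlike *Ets1*. The 20 endothelial markers had a median of 11.28 and ranged from *Pecam1* with 4.89 and 3.77 to *Klf2* with 34.50 and 29.66.

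Among the genes of both lineages, *Tal1* had 23.36 and 24.39 in a region of 5120 bp that covers all 4 of its annotated starts. *Lmo2* had 15.48 and 21.12. *Etv2*, whose expression is known to end soon after the precursor stage, was weak with 7.06 and 5.53. Its start region was found in both replicates, but it is centred 1.0 kb inside the gene and overlaps an exon. The blood-restricted pair differed from each other. *Runx1* reached 26.62 and 24.64, near the middle of all genes (53.4%), and *Spi1*, the lowest of the 10 genes, 5.16 and 4.27, above 2.81% of them. The order of the 10 genes was the same in both replicates, from *Ets1* through *Ets2*, *Runx1*, *Tal1*, *Lmo2*, *Elk3*, *Fli1*, *Erg* and *Etv2* to *Spi1*. *Lmo2* and *Elk3* overlapped between replicates, and in replicate 2 *Runx1* and *Tal1* were apart by the step of a single read, so these neighbours were not separated.

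Several members have alternative promoters, and these were not equally open. *Runx1* is transcribed from a distal promoter, used mainly in definitive blood, and a proximal one about 130 kb into the gene, used in hemogenic endothelium and early blood. None of the 3 distal starts, at 0 to 0.4 kb, had a peak within 1 kb in either replicate. The 4 proximal starts, at 128.8 to 130.7 kb, were all open, with the region of 26.62 and 24.64 at 3 of them and one of 10.59 and 13.58 at the start 130.7 kb in. *Lmo2* showed a milder form of the same arrangement. At its distal starts the strongest shared region had 3.53 and 6.28, and at the proximal starts, up to 13.2 kb downstream, 15.48 and 21.12.

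*Erg* was open at its outermost start alone among 6, in a region that a start window of 500 bp no longer reached. The same window lost the start regions of *Etv2* and *Spi1*. Its starts at 56.2 and 62.0 kb had no peak in either replicate, and those at 127.2 to 127.3 kb had a peak of 4.62 in replicate 1 and none in replicate 2. *Ets1* had, besides its coding starts, a weaker region of 7.06 and 6.54 at a pair of upstream noncoding starts at -59.8 kb. *Ets2* was open at 3 starts within 0.4 kb and closed in both replicates at those of 4.3, 13.8 and 15.7 kb. The internal start of *Elk3* at 26.2 kb had a peak of 4.27 in replicate 2 and none in replicate 1.

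*Spi1* needs a separate statement, since its start region is not at the promoter of its reference transcript. Spi1-201, the transcript in the GENCODE basic set, starts 13.7 kb inside the outermost annotated start, and no peak lay within 1 kb of it in either replicate. The region of 5.16 and 4.27 lies at the start of 2 transcripts outside the basic set, 0.7 kb downstream of the outermost start. From the start of Spi1-201 it lies 13.0 kb upstream, inside the window of the upstream regulatory element of *Spi1* known as -14. With basic transcripts alone, 19 of 27 starts of the 10 genes were open, beside 65.2% of the basic starts of all protein-coding genes. An open basic start was found in 9 of 10 genes, *Spi1* being the exception, beside 66.0% of all protein-coding genes.

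The neighbourhoods of the 10 genes held 156 shared regions, 62 of them in the bodies of the members, 19 at their starts, 43 between genes, 15 in bodies of other genes and 17 at the starts of other genes. In 20 of the 156, a replicate's value comes from a broad peak whose summit lies outside the shared stretch. Their values are left aside below, except in the counts by q-value, and are drawn open in the map of the loci. In the other 136, mean fold enrichment ran from 3.27 to 49.29. The map places each region by its distance from the outermost coding start, counted along the gene.

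**Figure D2:**
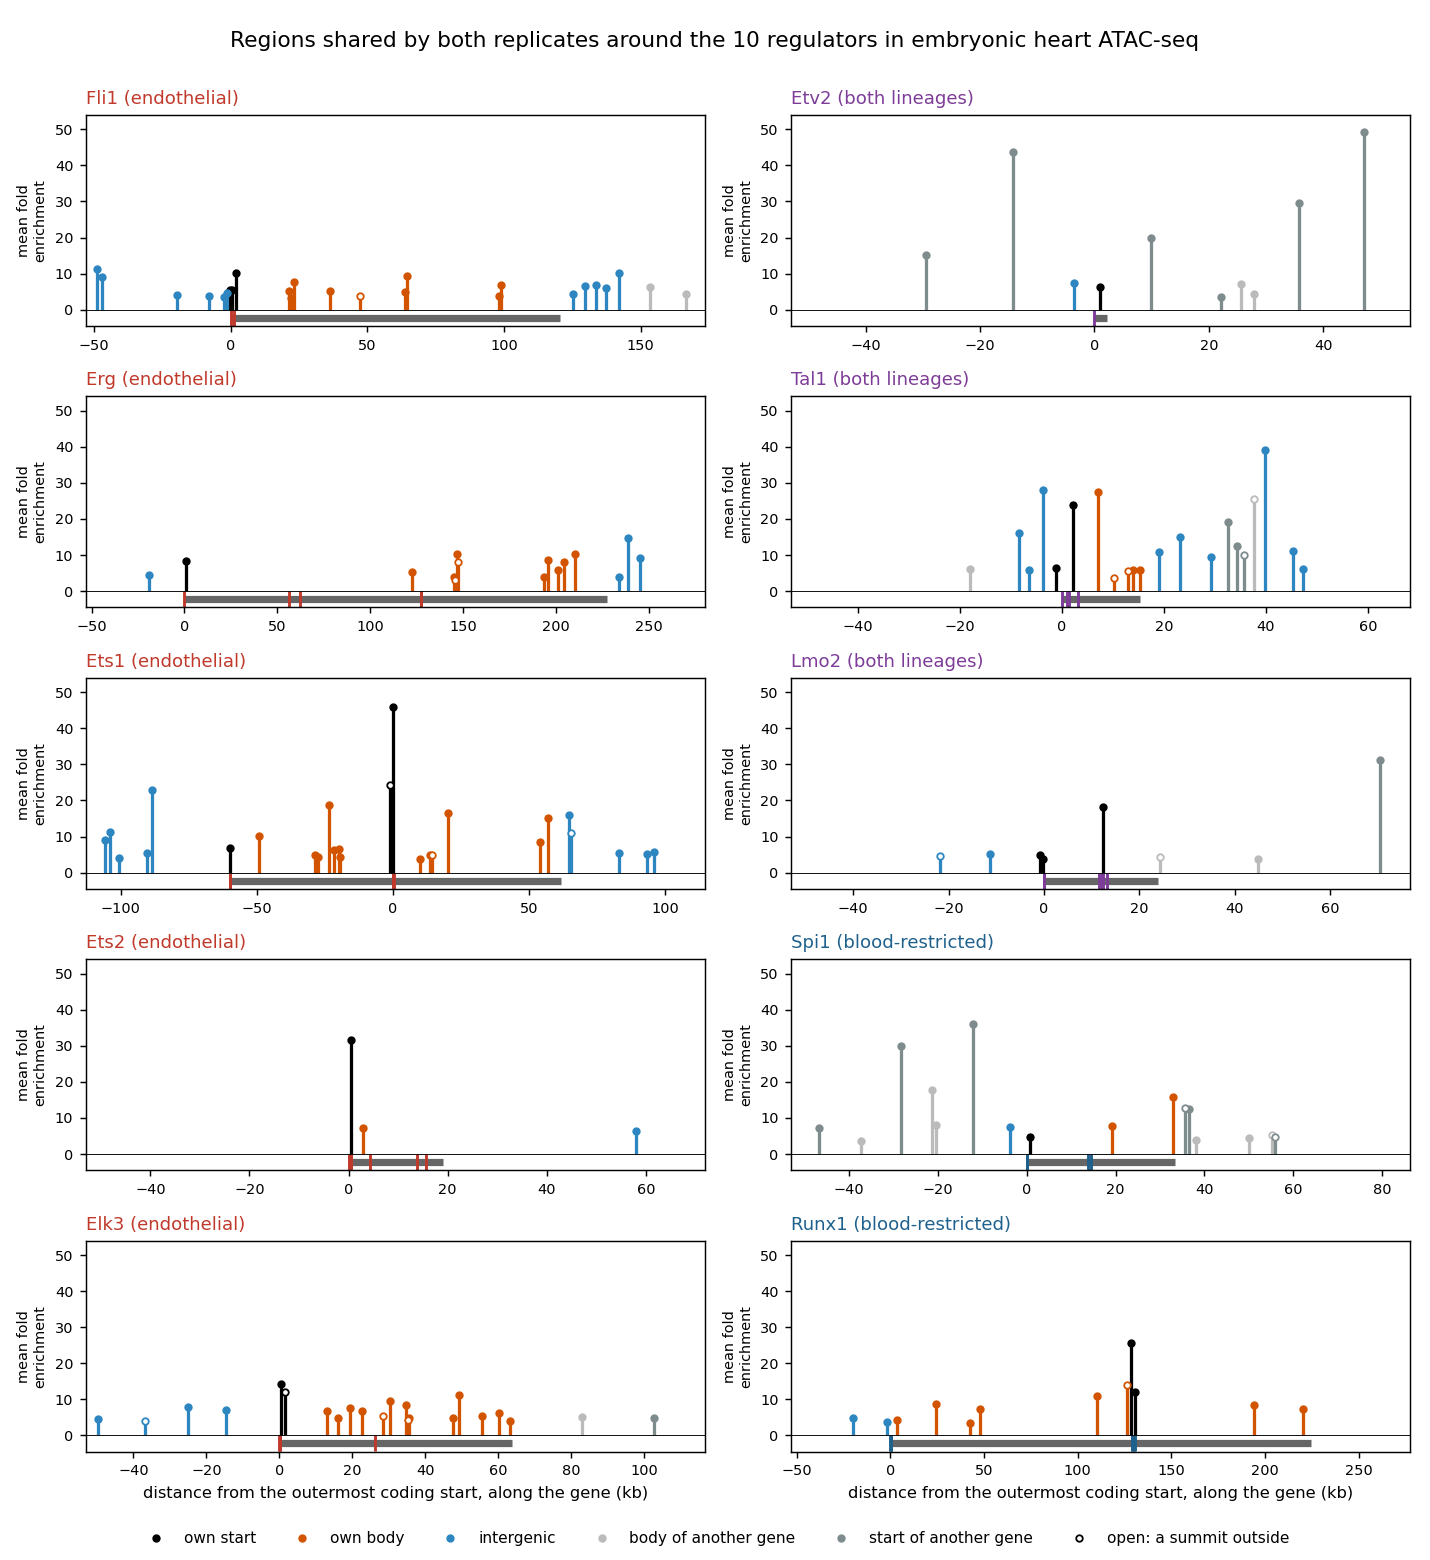
Mean fold enrichment of both replicates (vertical axis) of every shared region in the body of each gene plus 50 kb on each side, against the distance of its centre from the outermost coding start in kb (horizontal axis, negative upstream). Grey bars are gene bodies, coloured ticks are annotated starts, point colours give where a region lies, and open points are regions with a summit outside; *Tal1* combines many strong regions in a short interval, while the tallest points around *Etv2* belong to the starts of other genes.

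*Fli1* (chr9:32422204-32542861) had 25 shared regions, spread over its introns and the flanks and uniformly modest. The highest, at -49.1 kb, had 11.95 and 10.81, and the intronic one at 64.6 kb 10.87 and 7.79. *Ets1* (chr9:32636221-32757820) lies on the same chromosome in the opposite direction, and the region at -49.1 kb and its neighbour of 8.42 and 9.80 fall between both genes and were counted for each. *Ets1* had 26 regions, of which 8 with both summits inside had a mean above 10. The strongest away from its starts, at -88.6 kb, had 17.93 and 27.65, a larger gap between replicates than at its promoter. Intronic regions at -23.5 kb (18.74, 18.85), counted from the coding start and inside the longer upstream transcripts, and at 20.3 kb (18.47, 14.58) were followed by one downstream at 64.9 kb (15.75, 16.34).

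*Erg* (chr16:95359169-95586593) had 15 regions across 327.4 kb. They were gathered in the 3′ part, with the highest downstream of the gene at 239.0 kb (17.38, 12.32), and only the start region and a weak one of 4.62 and 4.53 at -19.0 kb lay before 122.5 kb. *Ets2* (chr16:95702075-95721051) is the opposite case, a strong promoter with few companions. Besides it, an intronic region at 3.0 kb (9.24, 5.28) and one at 58.1 kb (8.15, 4.53) were the sole shared regions of its neighbourhood. *Elk3* (chr10:93247414-93311135) had 22 regions, 14 of them in its body, with the highest at 49.3 kb (13.31, 9.30). The last 5 of these, from 47.7 to 63.1 kb, lie where the annotation of *Cdk17* overlaps *Elk3*, so that they belong to both genes by position.

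*Tal1* (chr4:115056426-115071755) had the densest neighbourhood of the 10 genes. A length of 115.3 kb held 21 shared regions, and 8 of the 18 not at another gene's start held both summits and had a mean above 10. The region at 39.9 kb had 35.85 and 42.23, higher than the promoter in both replicates, as was that at 7.2 kb (28.79, 26.14). The region at -3.7 kb (31.51, 24.64) was above the promoter in replicate 1 and within the step of a single read of it in replicate 2. Next by the mean of both replicates came -8.3 kb (16.30, 16.09), 23.2 kb (15.21, 14.58), 45.4 kb (10.87, 11.31) and 19.1 kb (11.41, 10.06). In replicate 1 alone, 19.1 kb was above 45.4 kb. A further 3 regions lay at the starts of the neighbour *Pdzk1ip1*. Replicate 1 had no peak in this interval without a partner, and replicate 2 had 10, none above 5.28.

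*Lmo2* (chr2:103957986-103981878) had 8 regions, and outside its starts none of those with both summits inside and not at another gene's start exceeded 5.16 and 5.28. *Etv2* (chr7:30633616-30635852) is a short gene among many. Of its 10 regions, 6 lay at the starts of *Kmt2b*, *Zbtb32*, *Upk1a*, *Cox6b1*, *Rbm42* and *Haus5*, up to 51.07 and 47.51 at *Kmt2b*. Its own were the start region and an intergenic one 3.5 kb upstream with 8.69 and 6.28.

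*Spi1* (chr2:91082390-91115756) had 16 regions, but 6 were at the starts of *Rapsn*, *Psmc3*, *Slc39a13*, *Mybpc3* and *Madd*, and 6 in bodies of other genes. *Mybpc3*, a cardiomyocyte gene, had 13.85 and 11.06 at its start 36.5 kb from the outermost start of *Spi1*. The highest region assigned to *Spi1* itself lay at the 3′ end of its body at 32.9 kb, with 15.75 and 16.09, and overlaps an exon. That leaves -3.7 kb (8.15, 7.04), the upstream region of 5.16 and 4.27, and an intronic one at 19.2 kb (8.15, 7.29). *Runx1* (chr16:92601466-92826149) had 12 regions in 324.7 kb and none at another gene. Apart from the proximal promoter, the highest were intronic at 110.3 kb (8.96, 13.07) and 24.4 kb (6.79, 10.81), both higher in replicate 2, and at 193.9 kb (9.51, 7.29).

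To set the groups side by side, regions and interval lengths were summed over the members of each group, so that the 2 regions between *Fli1* and *Ets1* count for both genes. The endothelial members had 91 regions in this sum, or 8.65 per 100 kb, and the blood-restricted members 28, or 6.11. *Etv2*, *Tal1* and *Lmo2* together had 11.42. The quartiles of this density over all protein-coding genes were 2.42, 5.41 and 8.95. Without regions at the starts of other genes, the values became 8.55, 4.80 and 8.49, beside quartiles of 1.47, 3.56 and 6.27. Regions in bodies of other genes remained in these values. They were 3 of 88 distinct endothelial regions, 6 of 22 blood-restricted ones and 6 of 29 of *Etv2*, *Tal1* and *Lmo2*. The difference between endothelial and blood-restricted members, 2.53 regions per 100 kb, was 1.37 in replicate 2 alone and 3.16 in replicate 1 alone. With regions and bases shared by members counted once, the endothelial density was 8.51. A q-value of at most 1e-10 in both replicates was reached by 37 of the 89 distinct endothelial regions (41.6%) and 17 of the 28 blood-restricted ones (60.7%), beside 45.8% of all shared regions, and the density difference was then -0.01. Of the strong blood-restricted regions, 12 were not at the start of another gene, against 37 endothelial ones, and among those the difference was 1.09.

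**Figure D3:**
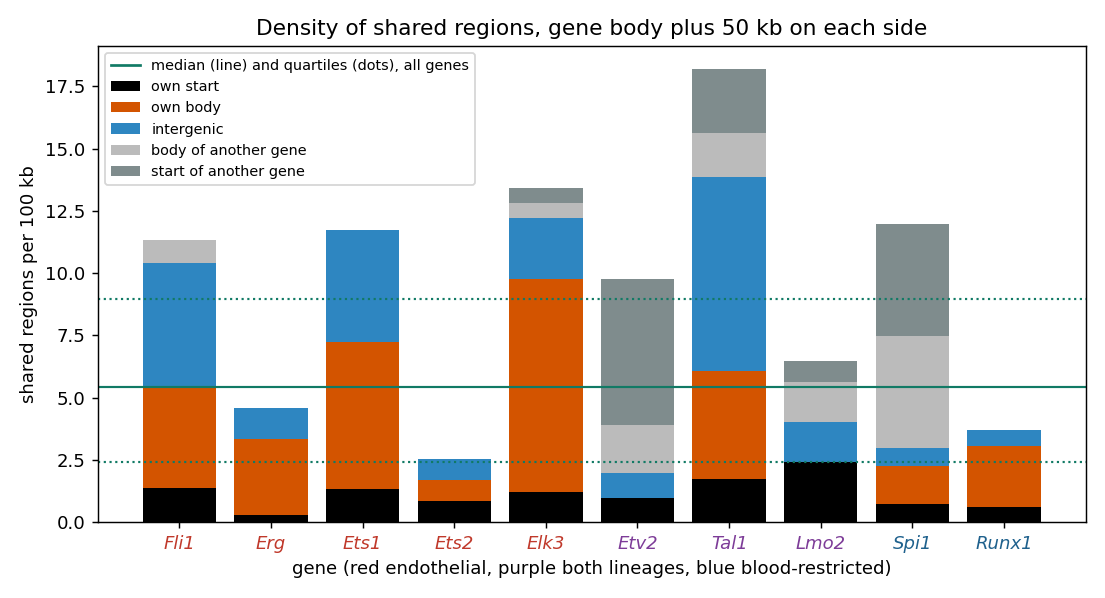
Shared regions per 100 kb (vertical axis) in the body of each gene plus 50 kb on each side (horizontal axis), stacked by where the regions lie. The green lines mark the quartiles of all protein-coding genes, 2.42, 5.41 and 8.95, and *Tal1* reaches 18.21, whereas *Etv2* and *Spi1* owe much of their height to the starts of other genes.

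The groups were not uniform in density. Without regions at other genes' starts, *Tal1* (15.61 per 100 kb), *Elk3* (12.83), *Ets1* (11.73) and *Fli1* (11.33) were each above at least 94.8% of all protein-coding genes. *Erg* (4.58) and *Ets2* (2.52) were endothelial members near or below the middle, above 60.7% and 37.8% of genes. *Spi1* (7.50) exceeded *Runx1* (3.70), *Lmo2* had 5.65 and *Etv2* 3.91. Of the 10 regions behind the value of *Spi1*, 6 lie in bodies of other genes. With 5 and 2 genes, the ranges of the groups overlapped in both density and start strength, and members are not replicates of a group, so that no test was made.

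Start strength did not separate the groups either. The median over members was 14.30 for the endothelial and 15.17 for the blood-restricted members, and on the log2 scale, where the median of the latter falls between *Spi1* (2.24) and *Runx1* (4.68), 3.84 against 3.46. This log2 difference of 0.38 was reversed with starts of basic transcripts, which leave *Runx1* alone in its group (-0.84), and with a start window of 500 bp (-0.27). It therefore carries no stable direction.

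Elements known by their distance in kb from the gene were looked up within 2 kb of that distance. For *Tal1* these are -4, an enhancer of endothelium and blood progenitors, +19, the stem cell enhancer, and +40, an erythroid enhancer. All 3 had a shared region, at -3.7 kb (31.51, 24.64), 19.1 kb (11.41, 10.06) and 39.9 kb (35.85, 42.23), where 18.9%, 20.05% and 20.6% of all protein-coding genes had one at the same distances. The stem cell enhancer was the weakest of them in both replicates. The order of the other 2 was also the same in both replicates, with the gap wider in replicate 2. The shares are over all genes, whereas *Tal1* had 18.21 shared regions per 100 kb beside a median of 5.41. A match at a set distance is therefore less particular at *Tal1* than the shares alone would imply.

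The +12 element of *Fli1* had no shared region, with a peak of 5.16 in replicate 1 and none in replicate 2, beside 20.01% of genes with a shared region at that distance. The +23 intronic enhancer of *Runx1* had the region at 24.4 kb (6.79, 10.81), beside 20.1%, which fell outside a window of 1 kb around that distance. The -14 element of *Spi1*, counted from the outermost start, met only the start of *Slc39a13* (38.03, 33.94), beside 19.7%. Counted from the start of Spi1-201, a choice made after the annotation had been seen, it met the region of 5.16 and 4.27, beside 19.8%. Either way, 5 of the 6 elements had a shared region. The first count takes in the start of *Slc39a13*, and with other genes' starts left out it was 4.

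Words of binding motifs were counted in the 201 bp windows of the members' regions whose summits lay at most 100 bp apart. Away from starts, CAGGAA was found in 25 of 56 endothelial windows, in 3 of 11 windows of *Etv2*, *Tal1* and *Lmo2* and in 3 of 11 blood-restricted ones, where 30.4% of all such windows held it. TGATAA was in 13 of 56, 1 of 11 and 1 of 11 windows, beside 14.7%. AGATAA was in 6 of 56, 3 of 11 and 2 of 11, beside 21.5%, so that the 2 GATA words lay on opposite sides of their background in the endothelial windows. CAGCTG was in 11 of 56, 1 of 11 and 3 of 11, beside 19.6%. The longer words were rare in all groups: CAGGAAGT was in 3 of 56 endothelial windows (3.25% of all), AACAGGAA in 1 of 56 (2.87%), TGTGGTT in 3 of 56 (3.94%), and CCGGAAGT in 0 of 56 (0.345%). The spaced CTG and AGATAA arrangement was found away from starts at *Tal1* at -8.3 kb, beside 1.19% of all windows, and in none of the endothelial or blood-restricted windows. At starts there were 7, 4 and 2 windows, too few to describe by shares.

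Relatives and partners of the members were examined for comparison. Of 19 other ETS genes, 17 had a shared region at a start (89.5%, beside 67.6% of all protein-coding genes), with a median of 27.33 beside 24.47 over all genes with one. The strongest were *Etv5* (53.51, 49.02) and *Gabpa* (44.82, 42.74), the latter an ETS factor expressed in most cells. *Spib* and *Spic*, the closest relatives of *Spi1* and genes of B cells and macrophages, had none. Of 13 partners and paralogs of TAL1, LMO2 and RUNX1, 12 had a start region (92.3%), with a median of 22.91. The adaptor gene *Ldb1* had 29.88 and 29.16, *Cbfb* 28.52 and 28.91, the E protein gene *Tcf3* 28.25 and 26.14, and *Lyl1*, a paralog of *Tal1*, 34.22 and 34.19. *Gata1* (12.22, 15.08) and *Gata2* (15.21, 12.57), the GATA factors of erythroid cells and of endothelium and progenitors, were weaker. The exception was *Runx3*, a paralog of *Runx1*, without a region at any of its 6 starts.

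**Figure D4:**
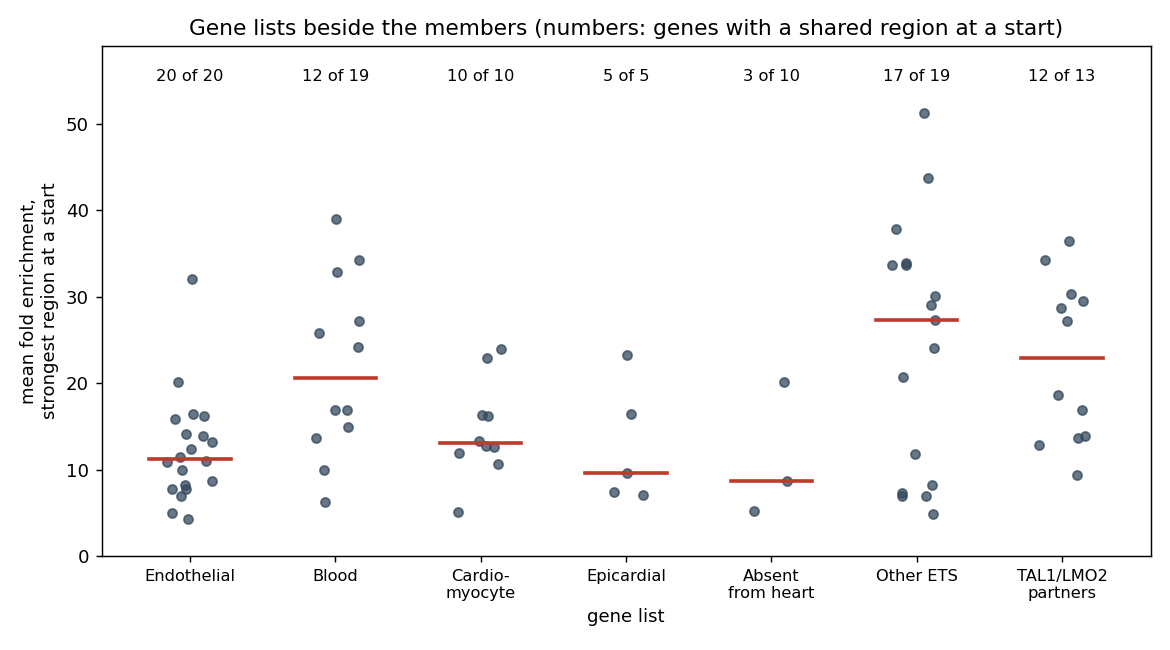
Mean fold enrichment of both replicates (vertical axis) of the strongest shared region at a start, for the genes of each list (horizontal axis), with red lines at the medians and the number of genes with a region above. Blood genes with a region had a median of 20.55, above the 11.28 of endothelial genes, although 7 of the 19 blood genes had none.

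The balance of the replicates was compared between genes, a comparison chosen after the values had been seen. For each of 87033 shared regions with both summits inside, the log2 ratio of replicate 2 to replicate 1 was set against the median of regions of like strength, in 20 classes of mean fold enrichment. Replicate 2 was above that median in 47.6% of all regions. At start regions, it was above in 9 of 12 blood genes (median 0.19), in 7 of 20 endothelial genes (-0.11) and in 2 of 9 cardiomyocyte genes (-0.18). It was also above in 3 of 5 epicardial genes (0.11) and 2 of 3 genes not expected in heart (0.08). Among the members' regions at their starts, in their bodies and between genes, it was above in 4 of 4 at *Lmo2* (median 0.39), 8 of 11 at *Runx1* (0.26) and 11 of 14 at *Tal1* (0.10), but in 4 of 13 at *Erg* (-0.22) and 5 of 16 at *Elk3* (-0.09). *Fli1* (11 of 22, 0.00), *Ets1* (14 of 23, 0.06) and *Spi1* (2 of 4, 0.02) lay near balance. *Etv2* (0 of 2, -0.21) and *Ets2* (1 of 3, -0.62) lay below it, with few regions. Over all endothelial members, replicate 2 was above in 33 of 75 regions (44.0%), with a median of 0.00, so that they showed no common shift.

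**Figure D5:**
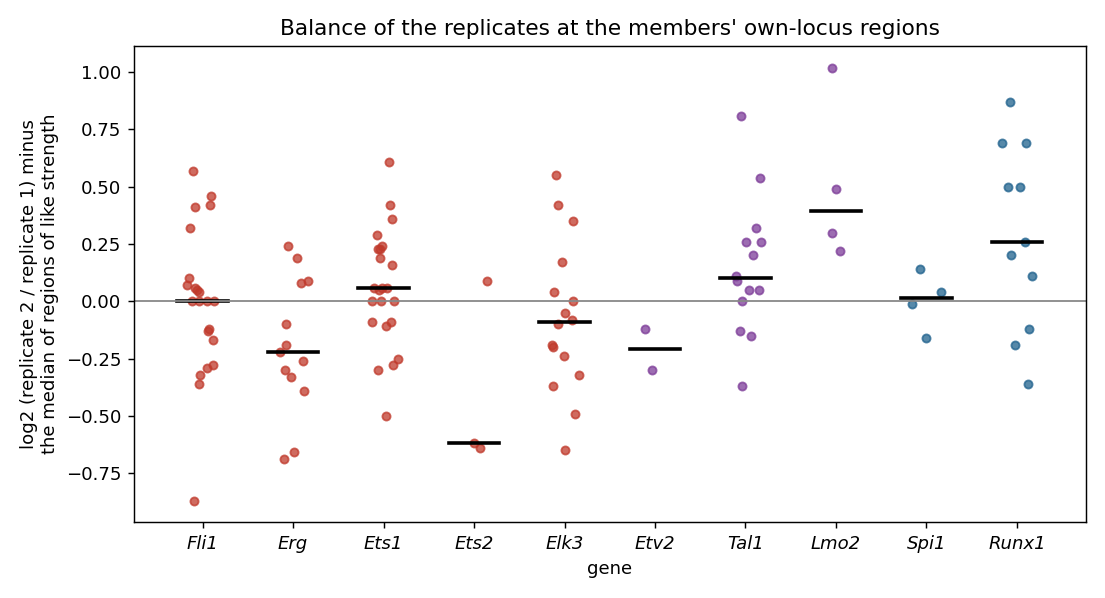
Log2 ratio of replicate 2 to replicate 1, less the median of shared regions of like strength (vertical axis), for the start, body and intergenic regions of each gene with both summits inside (horizontal axis); black lines are medians. *Lmo2* (0.39) and *Runx1* (0.26) lie above 0 and *Erg* (-0.22) below, with wide scatter between regions of a gene.

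Within *Tal1* the direction depended on the element. The region at 39.9 kb was higher in replicate 2 (log2 ratio 0.24) and the one at -3.7 kb lower (-0.35). At *Runx1*, the region at 24.4 kb had a log2 ratio of 0.67. The regions at its proximal starts had -0.11 at 128.2 kb and 0.36 at 130.4 kb. A difference between 2 libraries of the same group, each from other hearts, has no replicate behind it. The amount of blood in the hearts was not recorded in the sources used here, and its part in these ratios was not tested.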

How the data were processed

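ATAC-seq was performed on wildtype E11.5 hearts in 2 replicates. Per the paper's methods and the submitters' notes, the authors trimmed reads (Trim Galore 0.6.6), mapped them to GRCm38/mm10 (Bowtie2 2.4.2), removed duplicates and poorly mapped reads (SAMtools 1.12) and called peaks per replicate with MACS2. Sites in repeated sequence are therefore underrepresented. In the deposited lists, fold enrichment is a ratio at the summit, and the deposited p-values and q-values are given as −log10. The lists hold no read totals, so no counting interval was computed.

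Shared regions are the overlaps of at least 1 bp, merged where they touch, each with the highest fold enrichment of the overlapping peaks of each replicate. The overlap code was tested on simulated data and gave the same regions as bedtools 2.31.1. Starts and genes came from GENCODE M21 and sequences from the GRCm38 reference. Motif words were searched in 201 bp windows, in 73479 shared regions with summits at most 100 bp apart. Calculations used Python 3.11.15, NumPy 2.4.6 and pandas 2.3.3, and plots Matplotlib 3.10.9.

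The members and lists were chosen with earlier results of these data known, so no p-value is given over them. The text names all 10 members, other genes whose starts hold a region in a member's neighbourhood, and genes of the lists. Values are given for up to 6 genes where a list is described, and genes without a region are given by name alone. For the blood list, the other ETS genes and the partners, the extremes are not all given. *Klf1*, *Epor*, *Cebpa*, *Gfi1*, *Ikzf1*, *Ldb1*, *Cbfb*, *Tcf3*, *Lyl1*, *Gata1* and *Gata2* were picked for their role after their values were seen. A gene of the blood list is not reported here and stays out of that list's values. Alternatives were limits on p and q, reciprocal overlap, each replicate alone, other windows and flanks, basic transcripts, and other group memberships.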

Additional observations from a re-analysis of the deposited data

How the results depend on the processing

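The count of members with a start region stayed between 7 (start window of 500 bp, without *Erg*, *Etv2* and *Spi1*) and 10 over 8 alternatives, and that of elements with a region between 4 (without *Runx1* +23 in a window of 1 kb, or without *Spi1* -14 where other genes' starts are left out) and 6 over 9. Without replicate 1 and without replicate 2, endothelial regions numbered 102 and 114, blood-restricted regions 39 and 36, the density difference 1.37 and 3.16 and the log2 start difference 0.63 and 0.12. A q-value limit of 1e-10 left 37 endothelial and 17 blood-restricted regions, a density difference of -0.01 and a start difference of -0.84, beside 45.8% of all shared regions past it. With regions at other genes' starts left out as well, 37 and 12 regions and a density difference of 1.09 remained. Counting *Tal1* and *Lmo2* as blood-restricted gave 57 regions, a density difference of 0.47 and a start difference of -0.55. The start difference also reversed with a start window of 500 bp (-0.27) and with basic starts (-0.84). *Spi1* falls out in these 2 settings and at the q-value limit where it has no start region left. The start difference was 0.13 without *Ets2* and 0.13 with *Etv2* counted as endothelial. None of the remaining alternatives turned a direction or moved a count by over 1.5 times. Distances from the basic start, single counts of what members share, the q-value limit without other genes' starts, elements without regions at other genes' starts, and regions that hold both summits were added after the data were seen. No paired analysis was possible because both samples belong to one condition. The unknown read depth limits what can be said of weak peaks found in 1 replicate.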
